A study of Mus musculus with 106 samples.

Results

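Regions marked by H3K4me3 that lie far from every annotated transcription start site were described across mouse bone marrow cells. H3K4me3 (histone H3 trimethylated at lysine 4) and H3K27ac (histone H3 acetylated at lysine 27) had been mapped by ChIP-seq, in which an antibody enriches DNA bound to the marked histone and intervals rich in reads are called as peaks. Peaks of each of the 35 H3K4me3 lists were ordered by −log10 p, and the leading 10000 were merged over lists. Of 26271 merged regions, 14918 were found in at least 4 lists, and 1455 of these had no start site of any annotated gene of any type within 2.5 kb on the GRCm38 genome. These 1455 are called far regions, and the other 13463 are called start-site regions. The far regions were chosen by the −log10 p values of the H3K4me3 lists, so the H3K4me3 values given for them are descriptions without tests.

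All libraries came from C57BL/6J mice, aged 12 to 14 weeks where they entered the study. Diabetic mice had been given streptozotocin, a toxin of insulin-producing beta cells, at 42 to 45 mg/kg on each of 5 days and were used 6 weeks later if blood glucose was above 13.9 mmol/L. Control mice had no diabetes. The label HSC (hematopoietic stem cells) stands for bone marrow from which cells carrying CD3, CD4, B220, Ter119 or Gr1 had been removed, which is an enrichment and not a pure stem cell sort. Bone marrow–derived macrophages (BMDM) had been grown for 7 days with L929-conditioned medium at 5 mmol/L glucose, after which they spent 16 h in medium alone (unstimulated) or with lipopolysaccharide (LPS, 100 ng/mL) plus interferon-γ (IFN-γ, 10 ng/mL). The 16 h is that of the study's general macrophage protocol, and its ChIP-seq methods state no stimulation time. Each mark had 6 libraries for each disease and cell state, except diabetic unstimulated BMDM with 5, which gave 12 lists per mark for HSC, 11 for unstimulated BMDM and 12 for BMDM with LPS+IFN-γ. Libraries were numbered within a group, and every p value below measures only the spread between these libraries.

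The deposited lists held 13730 to 277213 peaks for H3K4me3 (median 96580) and 51162 to 176559 for H3K27ac (median 124083), and read totals were not analysed here, so depth is unknown. The shortest list of each mark came from diabetic HSC replicate 6. The cell labels were checked on H3K27ac over start sites. Of 10 HSC markers, 8 were held by a larger share of HSC than of unstimulated BMDM lists, with Myb in 100% and Gata2 in 83.3% of HSC lists and neither in a BMDM list. Of 10 macrophage markers, 5 were higher in unstimulated BMDM, with Mertk in 72.7% of those lists and in no HSC list. Adgre1, Msr1, Cx3cr1 and Lyz2 were held by no list of either mark. Markers of other lineages were higher in HSC at 4 of 6 erythroid genes, 3 of 6 megakaryocyte genes and 1 of 6 each for T cells, neutrophils and stroma, and at 0 of 6 B cell genes, with Hba-a1 in 58.3% and Epor in 41.7% of HSC lists and neither in a BMDM list. The part of other lineages in the values for HSC was not tested. On H3K4me3 the same check separated the cell states less. Of the 10 HSC markers, 4 were higher in HSC and 3 in unstimulated BMDM, with Myb and Gata2 in 100% of the lists of both. Of the 10 macrophage markers, 4 were higher in unstimulated BMDM and 0 in HSC. In control BMDM, 3 H3K27ac libraries went against their stimulation labels. Replicate 5 of those labelled LPS+IFN-γ held 25 of 27 regions that marked every diabetic unstimulated library and no diabetic LPS+IFN-γ library, and 5 of the 26 regions with the opposite pattern. Among those labelled unstimulated, replicate 5 held 18 of those 26 regions and 5 of the 27, and replicate 6 held 17 and 1. Counts of H3K27ac calls are given with and without these libraries, and other BMDM values include them unless stated. The list of H3K4me3 in diabetic HSC replicate 6 stood apart as well, since 44.6% of its leading peaks lay over a start site, against 61.6% or more in the other 34 lists.

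H3K4me3 is deposited by SET1 and MLL complexes, which are drawn to unmethylated CpG-rich DNA through CXXC domain subunits, and the mark is a standard sign of promoters at which transcription starts. Away from annotated promoters it can mark start sites that an annotation lacks, genes transcribed by RNA polymerase III such as those for tRNA, strongly active enhancers, and CpG islands of developmental genes held silent in bivalent chromatin. H3K27ac is placed by p300 and CBP at active promoters and enhancers, so its presence or absence separates active from inactive marked regions in the usual reading.

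Sequences from 4 kinds of far region are shown because the results below return to them. Copies of the Rn4.5s gene recur in a tandem array on chromosome 6 that held 17 far regions. Of the 2 tRNA genes, n-TGtcc3 lay in a far region and n-TEttc6 just past the end of one. Capitals mark the B box, a part of the internal promoter of tRNA genes. The last 4 are the 150 bp around the strongest H3K4me3 summit of a far region, with CG dinucleotides in capitals: Ebf3, with H3K4me3 in nearly every list and no leading H3K27ac peak, Cbx8, with both marks, Nrarp, with H3K27ac in HSC, and Tmem171, with H3K27ac in BMDM. All were read from GRCm38.p6, with genes as RefSeq annotates them.
Rn4.5s gene, chr6:47654921-47655094, minus strand: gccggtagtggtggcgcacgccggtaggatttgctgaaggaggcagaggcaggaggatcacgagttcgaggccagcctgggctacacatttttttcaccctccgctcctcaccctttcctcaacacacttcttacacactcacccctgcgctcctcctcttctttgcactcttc
n-TGtcc3, a glycine tRNA gene, chr1:171102756-171102827, plus strand: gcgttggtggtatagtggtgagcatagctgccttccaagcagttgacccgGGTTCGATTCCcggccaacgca
n-TEttc6, a glutamate tRNA gene, chr14:76152774-76152845, plus strand: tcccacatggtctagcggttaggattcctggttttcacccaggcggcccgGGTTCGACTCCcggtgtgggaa
Ebf3 window, chr7:137310278-137310427, plus strand: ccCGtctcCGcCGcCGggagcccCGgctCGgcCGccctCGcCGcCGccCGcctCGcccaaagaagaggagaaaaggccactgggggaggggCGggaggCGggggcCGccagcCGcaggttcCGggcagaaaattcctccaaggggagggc
Cbx8 window, chr11:119056642-119056791, plus strand: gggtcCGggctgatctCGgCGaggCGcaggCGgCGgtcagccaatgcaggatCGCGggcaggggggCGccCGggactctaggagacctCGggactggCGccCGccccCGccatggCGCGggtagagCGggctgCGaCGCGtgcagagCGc
Nrarp window, chr2:25168081-25168230, plus strand: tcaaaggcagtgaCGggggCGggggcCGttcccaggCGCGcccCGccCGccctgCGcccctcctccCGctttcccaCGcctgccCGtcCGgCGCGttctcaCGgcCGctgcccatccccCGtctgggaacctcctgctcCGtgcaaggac
Tmem171 window, chr13:98683977-98684126, plus strand: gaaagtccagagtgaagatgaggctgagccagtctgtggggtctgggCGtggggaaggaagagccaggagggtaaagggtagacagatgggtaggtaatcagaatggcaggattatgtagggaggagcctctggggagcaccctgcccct
The Ebf3 window held 17 CG dinucleotides, the Cbx8 window 21 and the Nrarp window 18, and the Tmem171 window held 1.

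Far regions were mostly intergenic, and they ranked lower and were found in fewer lists than start-site regions. At the summit, 809 (55.6%) were intergenic, 383 (26.3%) intronic, 210 (14.4%) in coding exons, 34 (2.34%) in untranslated regions and 19 (1.31%) in noncoding exons. Of start-site regions 7.81% had intergenic summits and 34.7% intronic ones. The nearest start site was 2503 to 317331 bp away, with a median of 9786 bp. It was 2.5 to 5 kb away in 352 far regions, 5 to 10 kb in 389, 10 to 50 kb in 603 and more in 111. The gene owning that start site was protein-coding for 774, a processed pseudogene for 218 and a lincRNA for 171. Another H3K4me3 region that did have a start site lay within 1 kb of 43 far regions and more than 50 kb from 486. The median width was 1216 bp, against 1493 bp for start-site regions.

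A far region was found in a median of 8 H3K4me3 lists, and a start-site region in 25. Exactly 4 lists held 267 far regions, at least 30 lists held 77, and all 35 held 6. Over the lists that held it, the median rank of a far region was 7283 of 10000 (start-site regions, 5292), while the median fold enrichment was 6.37 (start-site regions, 6.10). In the whole deposited lists, which run well past the leading 10000 peaks, far regions had an H3K4me3 peak in a median of 34 of 35 lists. Being in or out of a list therefore describes the rank of a peak there and seldom its presence.

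The 8 far regions held by the most H3K4me3 lists were in 34 or 35 lists. Those nearest Gm21119, 9030025P20Rik and Gm3435, and the region over Gm47283 on chromosome Y, were in all 35 lists with median ranks of 293, 413, 642 and 505. The last 3 lay over a RefSeq start of a long noncoding RNA, and the Gm21119 region lay 1092 bp from a RefSeq start. The other 4 had Cbx8, Pura, Pogz and Rnf19b as the nearest protein-coding gene, with median ranks of 3037, 3367, 1698 and 3262.5. Of these, the Pura region covered a RefSeq mRNA start of Pura and the Pogz region a RefSeq start of a long noncoding RNA. The nearest RefSeq start was 10989 bp from the Cbx8 region and 8461 bp from the Rnf19b region. Cbx8 encodes a chromobox subunit of Polycomb repressive complex 1, Pura a DNA- and RNA-binding protein, Pogz a zinc finger protein of chromatin and Rnf19b an E3 ubiquitin ligase. The Cbx8 region (chr11:119051902-119059664) was 7763 bp wide and lay 10933 bp from the nearest start site. Its H3K4me3 fold enrichment ran from 4.55 to 12.2 (median 6.14) in the 12 HSC lists, from 5.34 to 13.0 (median 7.94) in the 11 unstimulated BMDM lists and from 4.76 to 11.76 (median 7.11) in the 12 LPS+IFN-γ BMDM lists. These ranges overlapped in all 3 states. Placement of reads with several equal matches is not given in the sources used here, so values at these noncoding loci and on chromosome Y may include reads of other copies. Chromosome Y stood out by share: 21 of its 22 H3K4me3 regions (95.5%) were far regions, and on every other chromosome the share was 12.6% or less.

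Just inside and outside the rule, values were close. The 267 far regions in exactly 4 lists had a median width of 948 bp, and the 514 comparable regions in exactly 3 lists 869 bp. Among the 4-list regions the one with the best median rank (3126.5) lay 3919 bp from Zfp692. Among the 3-list regions the best (1616) had Parp8 as nearest protein-coding gene, 213207 bp from its start. The far region closest to the limit was 2503 bp from a start site, upstream of Foxf2. Far regions at 2.5 to 3 kb numbered 82, with a median rank of 7464, and regions left out at 2 to 2.5 kb numbered 100, with a median rank of 7492.5.

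**Figure D1:**
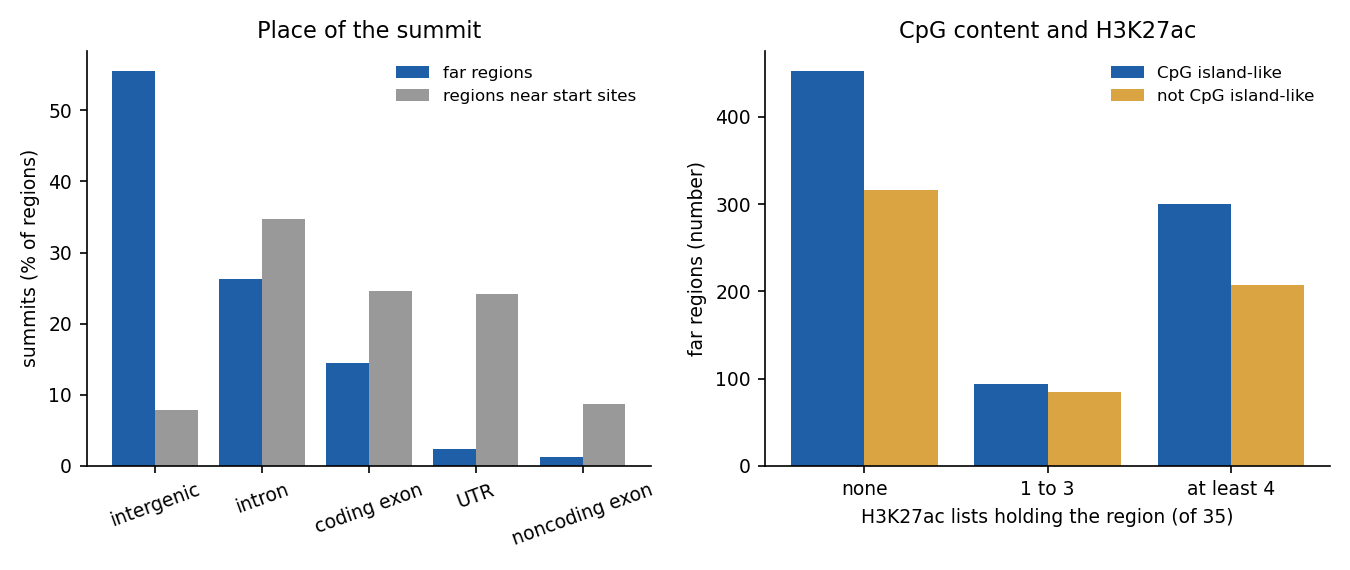
Left, percentage of 1455 far regions (blue) and 13463 start-site regions (grey) whose H3K4me3 summit fell in each kind of place. Right, number of far regions with a CpG island-like summit window (blue) or without (yellow), by the number of H3K27ac lists holding them. Intergenic summits made up 55.6% of far regions and 7.81% of start-site regions, and the largest class on the right is 453 CpG island-like regions in no H3K27ac list.

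The 300 bp around the summit was called CpG island-like when its GC content was at least 50% and its observed over expected CpG ratio at least 0.6. This held for 847 far regions (58.2%, 95% exact binomial interval 55.6 to 60.8) and for 86.9% of start-site regions. The interval treats regions as independent draws, which they are not, and measures no spread between libraries. The median CpG ratio was 0.66 in far regions and 0.82 in start-site regions, and the median GC content 64.3% and 69.0%. Soft-masked repeats covered a median of 12.3% of a far region and 7.63% of a start-site region, and over 50% of the width in 191 far regions and 32 start-site regions. CpG island-like far regions were found in more H3K4me3 lists than the rest, with a median of 11 against 6.

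Short transcription factor motifs were searched on both strands of the same 300 bp. RUNX (TGTGGT) matched in 172 far regions (11.82%), against 8.69% of start-site regions. AP-1 (TGANTCA) matched in 48 (3.30%), against 2.35%. Of longer motifs, given here by name with the same pair of shares, C/EBP matched in 85 (5.84%, 4.17%), CTCF in 51 (3.51%, 2.22%), the interferon response element in 23 (1.58%, 1.05%), PU.1 in 19 (1.31%, 1.32%) and NRF1 in 3 (0.206%, 0.349%). For GATA transcription factors the letters AGATAA were searched and matched in 68 (4.67%), against 1.95%. The words differ in length and base content, so shares are read only within a motif, and the higher GC content of start-site windows moves with these shares and its part in them was not tested.

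A RefSeq start site lay within 2.5 kb of 300 far regions (20.6%), and 183 regions covered it. By the RefSeq start nearest the summit, 137 were long noncoding RNAs, 112 mRNAs, 24 tRNAs and 16 pseudogenes. Far regions with a noncoding RNA start were in a median of 12 H3K4me3 lists, as were those with an mRNA start, and the 1155 without any RefSeq start in 7. At least 4 H3K27ac lists held 46.0%, 43.8% and 31.5% of these 3 classes.

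The GENCODE table used for the rule lists no tRNA gene of the nuclear chromosomes, and RefSeq was used to find them. A tRNA gene start lay within 2.5 kb of 28 far regions, at a median of 296.5 bp from the summit. Together they lay near 56 of the 403 RefSeq tRNA genes on these chromosomes. These regions were narrow, with a median width of 836.5 bp and a range of 524 to 1909 bp, and 21 were CpG island-like. The exact B box word in capitals above, with a single free position, was in the nearest tRNA gene of 10 of the 28 and in 40.4% of all 403. Other spellings of the B box were not searched, so genes without this word are not shown to lack one. H3K27ac was frequent at the far regions beside tRNA genes: 22 of 28 (78.6%) were held by at least 4 H3K27ac lists, against 34.8% of all far regions. The region with the isoleucine tRNA gene n-TIaat17 near Haao was in 31 H3K4me3 and 34 H3K27ac lists, and that with n-TGtcc3 near Cfap126 in 30 and 32.

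H3K4me3 at the tRNA regions was more often a leading peak in BMDM than in HSC. A list held 0 to 16 of the 28 in HSC (median 5), 8 to 16 in unstimulated BMDM (median 11) and 7 to 25 in LPS+IFN-γ BMDM (median 12.5), so that the states overlapped. The share of lists was larger in BMDM at 26 of 28 tRNA regions and at 823 of all 1455 far regions. H3K27ac did not follow, with 13 to 21 of the 28 held per HSC list (median 17.5), 12 to 19 per unstimulated BMDM list (median 15) and 13 to 20 per LPS+IFN-γ list (median 15.5). These 28 were picked out after their values were seen.

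A cluster of far regions was the array of 4.5S RNA genes between Ezh2 and Pdia4 on chromosome 6, singled out after its values were seen. The 4.5S RNA is a short rodent RNA made by RNA polymerase III. Each of 17 far regions between positions 47650589 and 47773325 held a match to the Rn4.5s gene printed above, over its whole 174 bases without a difference in 12 of them and with 83.9% or more of its bases identical in the other 5. Summits within the 2 blocks of the array were 3966 to 5509 bp apart (median 4337 bp), and the blocks were 54522 bp apart. Each summit lay 558 to 983 bp upstream of its 4.5S copy, with a median of 691 bp. RefSeq places starts of other gene models there as well. Far regions of the array covered starts of Gm40371, Gm40365 and Gm40363, and others lay 280 bp from a start of Gm36327 and 271 bp from one of Gm52861. Rn4.5s was the nearest RefSeq start only at the region over that gene. Which of these starts the mark belongs to was not tested.

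H3K4me3 lists held the array regions 28 to 33 times and H3K27ac lists 24 to 35 times, and 14 of the 17 were in all 35 H3K27ac lists. Their median ranks ran from 138.5 to 1805 of 10000, and they made up 11 of the 22 far regions with a median rank of 1000 or better. Their median fold enrichment was 3.0001 to 3.60, against 6.37 for all far regions. Reads from identical copies cannot be told apart, so the values of single copies are uncertain. How reads with several equal matches were placed is not given in the sources used here. Some other far regions of high rank had low folds too, among them Tmem267 (median rank 147, fold 3.28), Sfi1 (761, 2.81), Tcte2 (609, 2.55) and Tmem125 (684, 2.64). Not all did: Gm3435 (642, 7.28) and 9030025P20Rik (413, 6.65) were above the median of 6.37, and Gm21119 (293, 4.64) lay between.

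**Figure D2:**
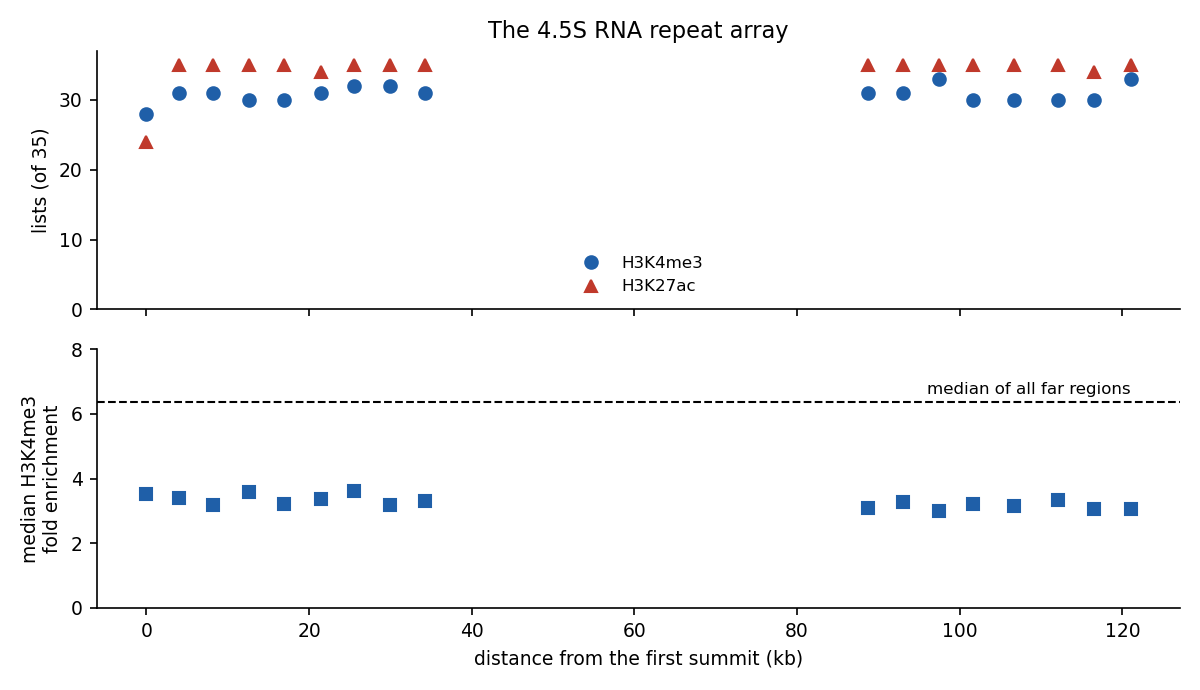
The 17 far regions of the 4.5S RNA array by distance of the summit from the first one, in kb. The upper plot gives the number of H3K4me3 (circles) and H3K27ac (triangles) lists of 35 that held each region, and the lower plot the median H3K4me3 fold enrichment, with a dashed line at the median of all far regions, 6.37. All 17 lie between 3.0001 and 3.60, below that line.

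H3K27ac was a leading peak at a minority of far regions. At least 4 of 35 H3K27ac lists held 507 (34.8%, 95% exact binomial interval 32.4 to 37.4), at least 18 lists held 270, and all 35 held 55. This interval too treats regions as independent draws, which they are not, and measures no spread between libraries. No H3K27ac list held 769 (52.9%), against 18.9% of start-site regions. A single H3K27ac list held 14.0% to 25.7% of far regions and 44.3% to 67.0% of start-site regions, without overlap. In the deposited lists at full length, far regions had an H3K27ac peak in a median of 29 of 35, and 8 had none, so the 769 lacked a leading H3K27ac peak rather than any peak.

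**Figure D3:**
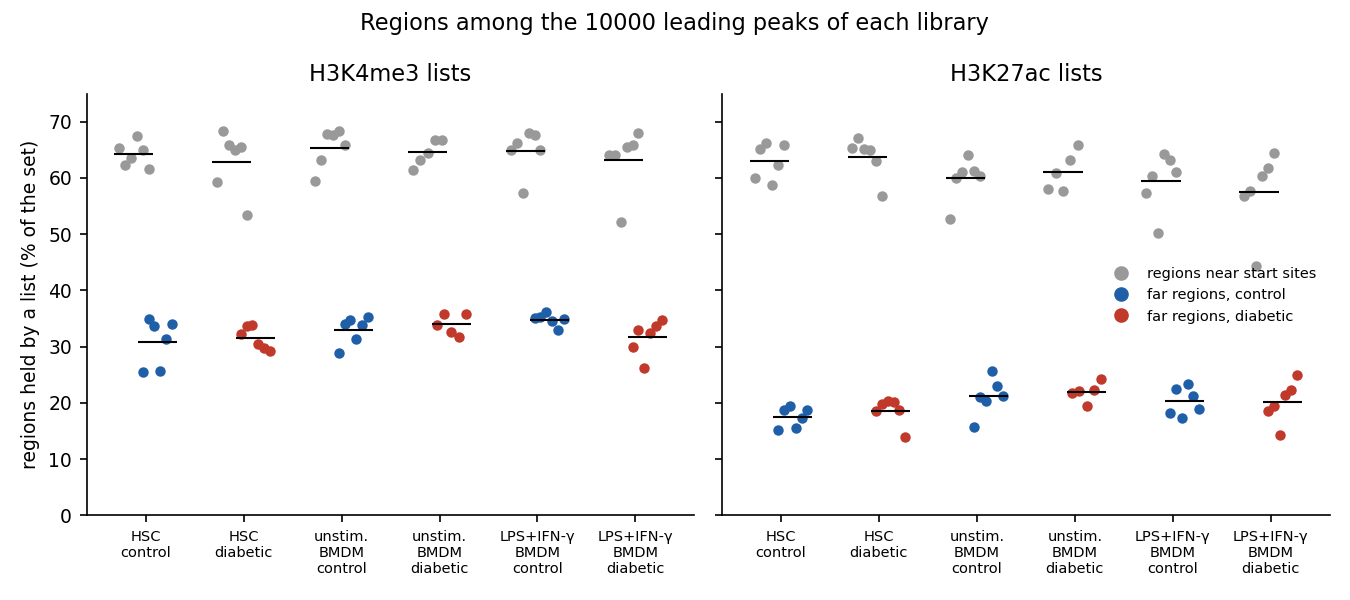
Percentage of the 1455 far regions (blue for control, red for diabetic libraries) and of the 13463 start-site regions (grey) held among the 10000 leading peaks of each library, for H3K4me3 lists on the left and H3K27ac lists on the right. Each point is 1 library and each bar the mean of its group. Far regions lie between 25.6% and 36.1% for H3K4me3 and between 14.0% and 25.7% for H3K27ac, below all start-site values.

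CpG-rich far regions without a leading H3K27ac peak were the largest class, with 453 regions, followed by 316 regions without either feature, 300 CpG island-like regions in at least 4 H3K27ac lists and 207 other regions in at least 4. Symbols of the nearest protein-coding genes were matched to developmental transcription factor families, by a pattern that also took in every symbol beginning with T. It matched at 128 of the 453 (28.3%), and at 25 of the 300 (8.33%). Among all far regions the count was 251 (17.3%), and among start-site regions 1416 (10.5%). The families, such as Hox, Pax, Irx, Sox, Fox and Tbx, were collected by symbol after the regions had been seen. All 4 counts include genes outside them that begin with T, and the families alone were not counted.

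The 4 far regions with no leading H3K27ac peak that the most H3K4me3 lists held lay in an intron of Ebf3 (34 lists), near Uncx (32), near Gm11444 with Tbx2 as its nearest RefSeq gene (32), and near Calcoco1 (31). Ebf3 and Tbx2 encode transcription factors of development, and Uncx a homeodomain protein of the axial skeleton and kidney. At the Ebf3 region, 2505 bp from the nearest start site, H3K4me3 fold enrichment was 3.06 to 11.9 (median 5.36) in HSC, 5.20 to 10.2 (median 8.08) in unstimulated BMDM and 4.52 to 9.48 (median 7.34) in LPS+IFN-γ BMDM. Its H3K27ac peaks were called in 7 of 12, 9 of 11 and 12 of 12 deposited lists, with median folds of 3.35, 4.53 and 4.19, and the best ranked of them was at 12432. The region near Uncx had H3K27ac peaks in 9, 10 and 12 lists with median folds of 3.30, 5.28 and 4.62, and the best rank was 12944.

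To ask where H3K27ac at far regions differed between cell states, the presence of a leading H3K27ac peak was tested at each of the 14918 regions by a two-sided Fisher's exact test, and p values were adjusted by Benjamini and Hochberg's method over all regions whose number of holding lists could reach a p of 0.05. Between HSC and unstimulated BMDM, 334 far regions could be tested and 136 were called at an adjusted p under 0.05, 43 higher in HSC and 93 higher in BMDM. Over all 3547 regions tested, 36.4% were called, 20.9% higher in HSC and 15.4% higher in BMDM. The far regions' own shares were 40.7%, 12.9% and 27.8%, and the difference of these shares from those over all regions was not tested. Without the control unstimulated libraries 5 and 6, the calls were 29 and 75. The 10 regions named next had adjusted p values of 0.000124 to 0.00282 without those libraries (Fisher's exact test). With H3K27ac peaks of any rank counted, the calls were 3 and 163, with 326 called of the 2736 regions tested over all. Regions called among leading peaks had deposited H3K27ac peaks in a median of 12 HSC and 11 BMDM lists where HSC was higher and of 11 and 11 where BMDM was higher, so calls in both directions were mostly differences in rank. All 10 regions named next had too few lists without a peak to be tested in that way, and the HSC lists held a median of 125766.5 H3K27ac peaks and the unstimulated BMDM lists 111095.

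The far regions called higher in HSC with the smallest p lay near Rph3al, Nrarp, Btnl10, Rnf220 and Cxxc5, the last 2 of 4 with equal p. Nrarp encodes an inhibitor of Notch signalling and a Notch target, Rph3al a Rab effector of exocytosis, Btnl10 a butyrophilin-like protein, Rnf220 an E3 ubiquitin ligase and Cxxc5 a CXXC zinc finger protein. The Nrarp region (chr2:25167458-25168770) lay 11988 bp from the gene's start. All 12 HSC lists held it as a leading H3K27ac peak and none of the 11 unstimulated or 12 LPS+IFN-γ BMDM lists (adjusted p = 3.55e-05, Fisher's exact test). Its H3K27ac fold enrichment ran from 4.93 to 20.4 (median 10.1) in HSC, from 2.81 to 7.22 (median 4.13) in the 11 unstimulated BMDM lists and from 3.88 to 7.09 (median 4.72) in the 10 LPS+IFN-γ BMDM lists with a peak. HSC were higher at the median, with overlapping ranges. H3K4me3 was a leading peak there in 5 lists of HSC, 1 of unstimulated BMDM and 2 with LPS+IFN-γ.

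The Rph3al region (chr11:75965369-75967676) covered a RefSeq start of Rph3al and was held by 12 HSC and no BMDM H3K27ac list (adjusted p = 3.55e-05, Fisher's exact test). It differed from Nrarp in H3K4me3, which was a leading peak in 12 HSC lists, in 10 of unstimulated and 9 of LPS+IFN-γ BMDM. The Rnf220 region, in an intron of the gene, likewise had H3K27ac in 10 HSC and no BMDM lists (adjusted p = 0.000832, Fisher's exact test), and H3K4me3 in 6 HSC, 9 unstimulated and 10 LPS+IFN-γ lists. H3K27ac and H3K4me3 did not move together at these 2 regions.

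The far regions called higher in BMDM with the smallest p had Atp23, Rbbp8, Ahnak2, Tmem171 and Hspb7 as nearest protein-coding genes. The Rbbp8 region was not close to that gene, at 280931 bp upstream of its start. Each of these regions was held by 11 of 11 unstimulated BMDM and 0 of 12 HSC H3K27ac lists (adjusted p = 3.55e-05, Fisher's exact test). They are 5 of 10 with that p, taken by the number of H3K4me3 lists. Ahnak2 encodes a large scaffold protein, Hspb7 a small heat shock protein, Atp23 a mitochondrial metalloprotease, Tmem171 a membrane protein and Rbbp8 the DNA repair factor CtIP. At the Tmem171 region (chr13:98683874-98684596), printed above, H3K27ac fold enrichment was 6.61 to 13.8 (median 11.4) in unstimulated BMDM, 6.17 to 22.97 (median 10.97) with LPS+IFN-γ and 2.32 to 7.98 (median 4.66) in HSC. H3K27ac was held in the same way at the Ahnak2 region, where the folds were 6.69 to 13.8 (median 8.81), 7.23 to 18.2 (median 10.8) and 2.48 to 5.82 (median 3.54), and HSC did not overlap with BMDM. H3K4me3 at Ahnak2 was a leading peak in no HSC, 3 unstimulated and 5 LPS+IFN-γ lists. The Ahnak2 region covered a RefSeq mRNA start of that gene.

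**Figure D4:**
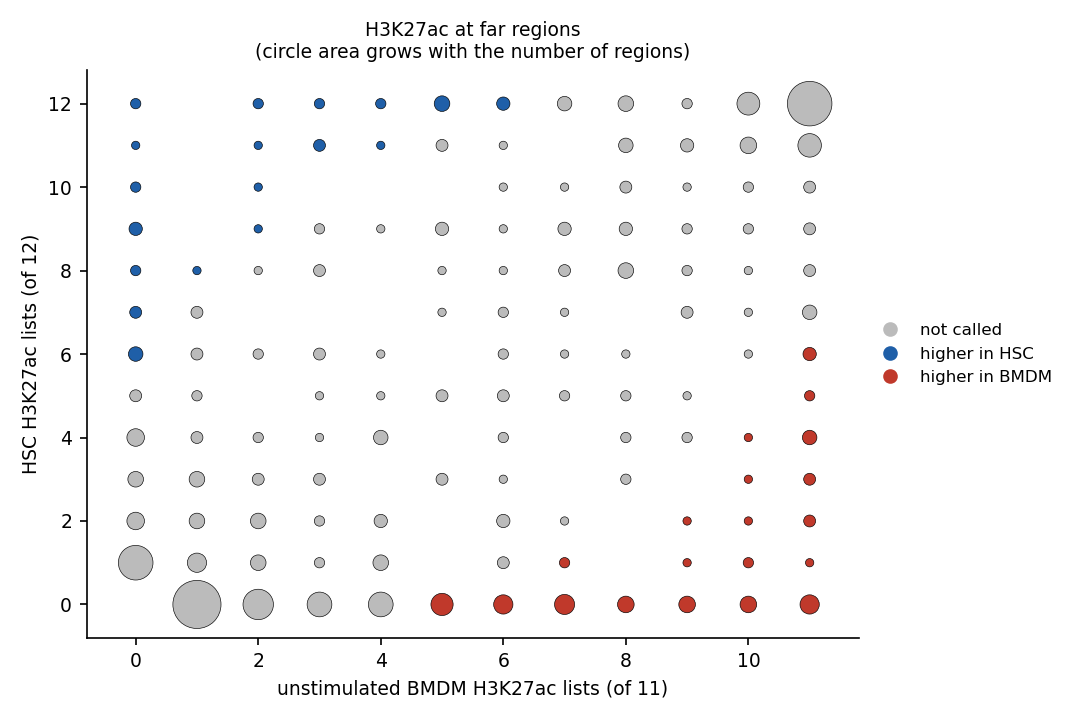
Number of unstimulated BMDM H3K27ac lists (horizontal axis, of 11) against HSC H3K27ac lists (vertical axis, of 12) holding each far region found in at least 1 of them. Circle area grows with the number of regions at that point. Blue circles hold the 43 regions called higher in HSC and red circles the 93 called higher in BMDM.

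H3K4me3 was counted at the regions with H3K27ac calls. At the 93 regions with more H3K27ac in BMDM, the share of H3K4me3 lists was higher in unstimulated BMDM at 79, higher in HSC at 11 and equal at 3, with medians of 36.4% of BMDM and 8.33% of HSC lists. At the 43 with more H3K27ac in HSC it was higher in HSC at 20, higher in BMDM at 22 and equal at 1, with medians of 41.7% and 27.3%. At the 198 regions tested and not called it was higher in HSC at 54, higher in BMDM at 139 and equal at 5, so a majority toward BMDM was found there too. CpG island-like windows were found at 28 of the 43 (65.1%), at 35 of the 93 (37.6%) and at 118 of the 198 (59.6%). The HSC-called regions were intergenic at 30 and intronic at 11, and the BMDM-called regions intergenic at 37, intronic at 36 and in coding exons at 15.

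**Figure D5:**
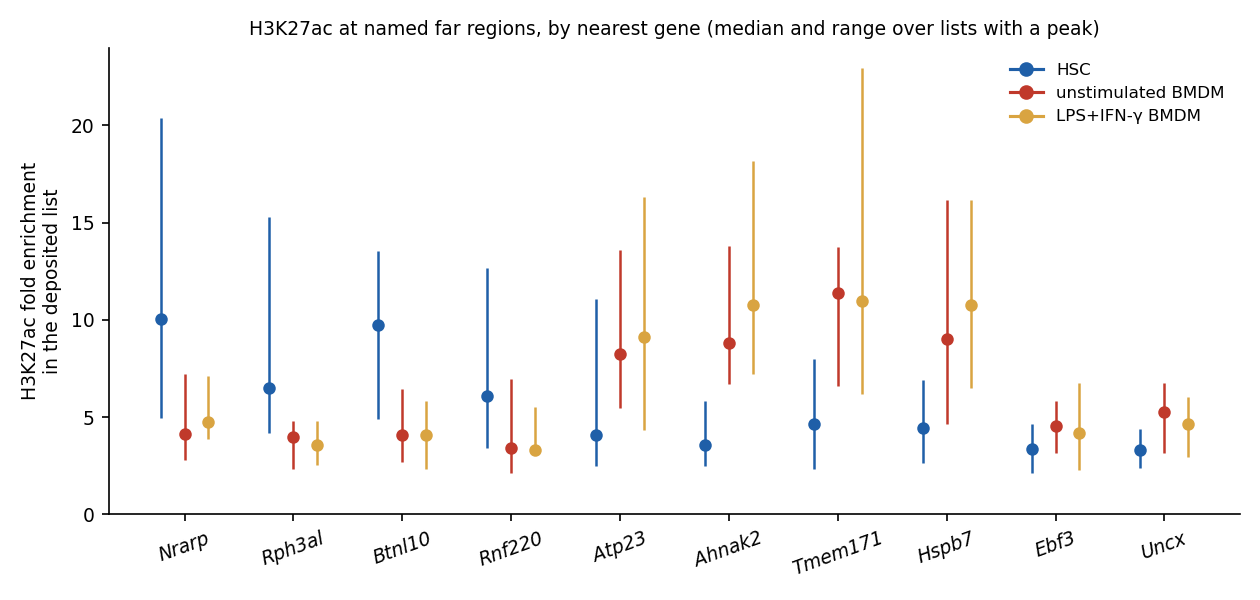
H3K27ac fold enrichment in the deposited lists at 10 far regions named by their nearest gene. Circles are medians and lines run from the lowest to the highest value over the lists with a peak, for HSC (blue), unstimulated BMDM (red) and LPS+IFN-γ BMDM (yellow). At Nrarp the HSC median of 10.1 stands above both BMDM medians, at Tmem171 the order is turned with 4.66 in HSC and 11.4 in unstimulated BMDM, and at Ebf3 and Uncx the highest median is 5.28.

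No HSC list held 299 far regions (20.5%) for H3K4me3, against 6.85% of all 14918 regions, and no BMDM list held 52 (3.57%), against 2.06%. With 12 HSC and 23 BMDM lists, a region in few lists misses all HSC lists more easily than all BMDM lists. Far regions were in a median of 8 lists and start-site regions in 25, and the part of this in these shares was not tested. Patterns with many lists of 1 cell type were rarer. At least 6 of 12 HSC lists and no BMDM list held 20 (1.37%), and 0.865% of all 14918 regions had that pattern. At least 12 of 23 BMDM lists and no HSC list held 8 (0.550%), against 0.65% of all regions. By contrast 1104 (75.9%) were in lists of both, as were 91.1% of all regions. The HSC-held regions with the most lists lay in an intron of Tspan4 (10 HSC lists), near Zfp978 (8), and near Psg26, Oaz1 and Sh3pxd2a (7 each). At the Tspan4 region, in a tetraspanin gene, H3K4me3 fold enrichment was 2.19 to 11.4 (median 5.87) in HSC, 2.99 to 7.02 (median 4.33) in unstimulated BMDM and 3.44 to 7.96 (median 4.45) in LPS+IFN-γ BMDM. The states overlapped throughout, and its best BMDM rank was 10620, just past the limit. The BMDM-held regions with the most lists lay in a coding exon of Spen (17 lists), in an intron of Insr, the insulin receptor gene (15), and nearest to Pcdh1 (14), Chchd3 (13) and Smad2 (13). The Smad2 region was 116640 bp from that gene's start. At Spen, which encodes a corepressor of Notch target genes, H3K4me3 fold was 5.05 to 7.48 (median 6.33) in unstimulated BMDM and 2.41 to 4.799 (median 2.97) in the 6 HSC lists with a peak, without overlap. With LPS+IFN-γ it was 3.49 to 11.05 (median 5.87) and overlapped both. Tspan4 and Spen were named by which H3K4me3 lists held them, so their fold differences are not independent of that choice. The H3K4me3 lists were also shorter for HSC, with a median of 59726.5 peaks. The median was 131406 peaks for unstimulated BMDM lists and 137889.5 for stimulated ones. The part of list length in these folds was not tested. H3K27ac at Spen was held by 11 unstimulated BMDM and 3 HSC lists (adjusted p = 0.00282, Fisher's exact test).

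Genes of the blood lineages were looked up as nearest protein-coding genes of far regions. Of 24 stem and progenitor regulators 7 were nearest to a far region (Hlf, Mecom, Meis1, Runx1, Sox4, Tal1 and Zfpm1), of 24 macrophage identity genes 4 (Id3, Spi1, Tfec and Zeb2), of 24 inflammatory and interferon response genes 4 (Relb, Socs1, Socs3 and Tlr4), of 24 lymphoid and erythroid genes 3 (Bcl11b, Ebf1 and Lef1) and of 24 housekeeping and chromatin genes 4 (Actb, Crebbp, Ezh2 and Kdm5b). For comparison, 5.35% of all 21911 protein-coding genes were nearest to a far region. The lists had been made with earlier results of these data known. Nearest does not mean near: the Zeb2 region lay 1179531 bp and the Lef1 region 164172 bp upstream of the gene's start. The 3 most shared regions of the housekeeping list, with Ezh2 as nearest gene, belonged to the 4.5S array.

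Tal1, a basic helix-loop-helix factor of blood stem cells, had a far region in its own coding exon, 3036 bp from a start site, in 31 H3K4me3 and 33 H3K27ac lists. Its H3K27ac fold medians were 6.36 in HSC, 6.47 without and 7.87 with LPS+IFN-γ in BMDM, with overlapping ranges. The Mecom region, in an intron of that zinc finger gene, was in 23 H3K4me3 and no H3K27ac lists. The region 3670 bp upstream of Spi1, which encodes the myeloid factor PU.1, was held for H3K4me3 by 5 HSC and no BMDM list. Its H3K27ac was a leading peak in 10 of the HSC lists, 0 of those without LPS+IFN-γ in BMDM and 2 with it (adjusted p = 0.000832 between HSC and unstimulated BMDM, Fisher's exact test). All 35 deposited H3K27ac lists had a peak there, with folds of 4.28 to 15.4 (median 8.41) in HSC, 4.25 to 8.32 (median 5.36) in unstimulated BMDM and 2.81 to 10.4 (median 7.58) in LPS+IFN-γ BMDM, so the ranges overlapped. The region near Id3, an inhibitor of helix-loop-helix factors, went the other way with H3K27ac in 0 HSC and 5 unstimulated BMDM lists (adjusted p = 0.0378, Fisher's exact test), and that assigned to Zfpm1, the gene of the GATA cofactor FOG1, likewise with 0 and 6 (adjusted p = 0.0172, Fisher's exact test). The latter lay 51410 bp upstream of Zfpm1 and covered a RefSeq start of Zfp469. The region with 15 H3K4me3 lists near Socs3, a feedback inhibitor of cytokine signalling, and that near Socs1 had no leading H3K27ac peak. A second region near Socs3, in 5 H3K4me3 lists, had one in 5 lists of HSC, 3 of unstimulated BMDM and 9 with LPS+IFN-γ.

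Of 270 far regions that could be tested between LPS+IFN-γ and unstimulated BMDM, 0 were called (0% of the 3336 regions tested over all). An unadjusted p under 0.05 was found at 32 of the 270, and at 330 of the 3336 over all. Without the 3 control libraries that went against their labels, 11 LPS+IFN-γ and 9 unstimulated lists remained, and 7 of 255 testable far regions fell under the same adjusted p, 2 higher with LPS+IFN-γ and 5 lower, against 1.38% of 3118 regions over all (0.353% higher and 1.03% lower). The libraries left out had been recognised by H3K27ac differences between the same states, so these 7 are a description and not a test.

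These 7 are named although chosen after their values were seen. The region nearest Acbd3 was held by 10 of 11 LPS+IFN-γ and 0 of 9 unstimulated H3K27ac lists and by 10 of 12 and 1 of 11 with all libraries. That near Scd1, the gene of stearoyl-CoA desaturase, was held by 11 of 11 and 2 of 9, and by 12 of 12 and 4 of 11 with all libraries. At the regions nearest Pdlim5, Ppara and Zfp36l1 (the last 147278 bp from the gene's start) the counts were 0 of 11 and 8 of 9. Nearest Acot11 they were 0 of 11 and 7 of 9, and nearest Snx10 2 of 11 and 9 of 9. With all libraries they were 1 of 12 and 8 of 11 at the first 4 of these and 3 of 12 and 9 of 11 at Snx10. Ppara encodes a nuclear receptor of fatty acid oxidation and Acot11 an acyl-CoA thioesterase. The Ppara and Acot11 regions were also held by 11 and 12 of 12 HSC H3K27ac lists, and for H3K4me3 by 30 and 33 of 35 lists, including 8 and 10 of 12 with LPS+IFN-γ. At both, the 1 LPS+IFN-γ list with a leading H3K27ac peak was the library labelled replicate 5 in control BMDM.

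Diabetic and control libraries were compared within each cell state. For H3K27ac, the far regions that could be tested numbered 62 in HSC, 140 in BMDM without and 83 with LPS+IFN-γ, and 0 were called in each (0% over all 743, 1432 and 954 regions tested). Unadjusted p values under 0.05 numbered 0, 0 and 1, and 1, 18 and 6 over all regions tested. The smallest p that 6 against 6 or 5 against 6 libraries allow is 0.00216, which leaves little room for a call after adjustment over so many regions. The lowest unadjusted p among far regions was 0.0152 near Dlx2 in LPS+IFN-γ BMDM, with 0 of 6 diabetic and 5 of 6 control lists (adjusted p = 1, Fisher's exact test). Leaving out the 3 libraries that went against their labels gave 0 calls in both BMDM states. The number of far regions held per H3K27ac list was 254 ± 27 (SD, n = 6) in control and 271 ± 35 (n = 6) in diabetic HSC, 308 ± 48 (n = 6) and 319.6 ± 24 (n = 5) in unstimulated BMDM, and 295 ± 35 (n = 6) and 294 ± 53 (n = 6) in LPS+IFN-γ BMDM. Control and diabetic lists overlapped in each state.

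For H3K4me3 the same counts were 449 ± 61 in control and 459 ± 29 in diabetic HSC, 480.3 ± 35 and 494 ± 27 in unstimulated BMDM, and 506 ± 15 and 461 ± 46 in LPS+IFN-γ BMDM, with the same n. These groups overlapped as well. In HSC 1123 far regions were held by numbers of control and diabetic lists that differed by at most 1 (81.3% of all regions did so), in unstimulated BMDM 1066 (75%), and after LPS+IFN-γ 1050 (76.7%). A difference of at least 4 lists toward control was found at 11, 17 and 21 far regions (over all regions 0.503%, 1.14% and 0.865%), and toward diabetes at 7, 7 and 6 (over all regions 0.509%, 0.0804% and 0.489%). Unstimulated BMDM had 6 control and 5 diabetic lists, so there a difference of 4 lists is reached more easily toward control. Those 2 counts are therefore not read as a lean toward control. Only 1 far region was in every diabetic and no control list of a state. It lay in an intron of Gse1, a gene of a chromatin-associated coiled-coil protein, and was held by 5 of 5 diabetic and 0 of 6 control unstimulated BMDM H3K4me3 lists, while 2 of all 14918 regions (0.0134%) had that pattern. In HSC the share of all regions with it was 0.0067%. In HSC the Gse1 region was held by 4 control and 4 diabetic lists, after LPS+IFN-γ by 3 and 1, and its H3K27ac was a leading peak in 1 control and 0 diabetic unstimulated BMDM lists.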

How the data were processed

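H3K4me3 and H3K27ac ChIP-seq peak lists of 70 libraries were used, and 36 inputs without a list of their own were not used. Per the submitters' processing notes, tools included Trim Galore 0.3.3, cutadapt 1.8, Bowtie2 2.2.6, Picard 2.18.14 and 2.19.2, MACS2 2.2.7.1 and bedtools 2.19.1, with builds GRCm38 and mm10, and reads were 50 bp single reads. The deposited lists, which the authors called per library, give a score for each peak, the fold enrichment over background at the summit (a ratio), and the −log10 p and −log10 q of the peak. No list held a −log10 q below 1.30104. Values were used to rank and describe peaks within a list.

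A peak was 1 numbered interval with all its summits joined. Peaks on 21 chromosomes were ranked by −log10 p, merged where they shared 1 bp, and set against 141730 transcript starts of 55413 GENCODE M21 genes. A list held a region if a leading peak of it shared 1 bp. No peak ran past a chromosome end of GRCm38.p6. Summit windows of 300 bp and repeats came from that FASTA. Fisher's exact test ran on all regions and was tested on simulated presence data. Members and lists were chosen with earlier results of these data known. Named regions were those in the most H3K4me3 lists (8), the 5 called with the smallest p in each direction, the 4 most shared without H3K27ac, the 5 most held in HSC or BMDM alone, the 3 most held of each gene list, and those at the limits. No sequence of chromosome 18 is printed. Python 3.11.15, pandas 2.3.3, scipy 1.17.1, pysam 0.24.0 and Biopython 1.88 were used.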

Additional observations from a re-analysis of the deposited data

Results flagged for a closer look

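The number of far regions held by the H3K27ac list of diabetic HSC replicate 6 was 203, against 270 to 297 in the other 5 diabetic HSC lists. That list was the shortest of its mark, with 51162 peaks. Its gap to the nearest list was 71.3% of the group's range, past Dixon's limit of 62.5% for 6 values. It was singled out of 12 groups tested, and chance alone singles out about 1 group in 20. Without it, 0 far regions were called between diabetic and control HSC, as with it.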

How the results depend on the processing

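Between HSC and unstimulated BMDM, 136 of 334 far regions tested were called, and 1290 of 3547 over all regions. The number of regions tested changed with the setting, so bare counts cannot be compared directly. Taking the 10000 leading H3K27ac peaks by fold enrichment gave 74 of 365 (792 of 5648 over all regions). With each summit as a peak it was 85 of 200 (1195 of 3649 over all). The count was 47 with control and 61 with diabetic libraries alone, and 107 to 129 when 1 library was left out. It was 127 of 530 with 20000 leading peaks (659 of 3412 over all) and 166 of 723 with all deposited peaks (326 of 2736 over all). Without the control unstimulated libraries 5 and 6, an alternative chosen after seeing the data, the count was 104. Same-numbered libraries did not deviate together in every pair (r from -0.187 to 0.287), so numbers were not taken as pairs. The replicate block, an exact McNemar test, called 82 of 174 (736 of 1898 over all). With all deposited peaks the 10 regions named for this comparison could not be tested. Between LPS+IFN-γ and unstimulated BMDM the count was 0, 7 without the 3 libraries that went against their labels, which is no test since H3K27ac between these states picked them, and 0 to 0 when 1 library was left out. Between diabetic and control libraries it was 0 under every alternative run, and 0 to 0 when 1 library was left out, which says nothing of stability in groups this small.

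The rule set the number of far regions, 1455. It was 3202 with at least 2 lists and 766 with at least 8, 463 with 5000 leading peaks, 6669 with peaks ranked by fold enrichment, 2670 with 1 start per gene and 961 with each summit as a peak. In that order, without the last, the share with H3K27ac in at least 4 lists was 22.6%, 44.5%, 54.9%, 7.93% and 46.9%, and the share of CpG island-like windows 43.6%, 73.0%, 76.7%, 40.7% and 66.5%, with 67.6% for summits. The intronic share was 31.0% with at least 2 lists, 23.4% with at least 8, 29.3% by fold and 34.1% with gene starts. The median distance to a start site was 7016 bp with a 1 kb limit, 13586 bp with 5 kb, 12123 bp with at least 2 lists, 8919 bp with 5000 peaks, 16202 bp by fold and 10677 bp with gene starts. The cause of these shifts was not tested. Depth is unknown, and a peak just past rank 10000 counts as not held.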
